A study of Mus musculus with 4 samples.

Results

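The genes described here are a set of macrophage and inflammatory genes in mouse adipose tissue with and without the protein kinase ASK1. They were chosen by name, as every probe whose gene name in the scanner files equals 1 of 36 symbols on all 4 arrays. Emr1 is the older name of Adgre1, so the symbols stand for 35 genes, and 34 of these have a probe, out of 22066 genes matched on the array. Spi1 has no probe under that name, and a probe listed under its older name, Sfpi1, is given separately at the end of the tissue comparison. RNA was measured in interscapular brown adipose tissue (iBAT) and in epididymal white adipose tissue (eWAT) of wild-type (WT) mice and of mice lacking ASK1, which is encoded by Map3k5. Each of the 4 conditions was 1 one-colour array that carried RNA pooled from 3 male mice aged 10 weeks and kept under normal conditions. The deficiency is in the whole body, so adipocytes, macrophages and all other cells of the fat pads lack ASK1, and the WT and ASK1-deficient mice were bred separately rather than as littermates. No condition has a replicate, so the spread between mice is unknown and a comparison within one depot carries no test.

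Macrophages reside in every fat depot, where they clear dying adipocytes and lipid, and they are recognised by surface receptors such as F4/80 (Emr1) and CD206 (Mrc1), by lysosomal proteins and by the complement component C1q. In inflamed fat they form crown-like structures around dead adipocytes and carry CD11c (Itgax), whereas macrophages of lean fat are rich in CD206 and CD163. Lipid-laden macrophages express Trem2, Gpnmb and Lgals3, and activation through Toll-like receptors, a pathway in which ASK1 is known to act upstream of p38, leads to the release of TNF and interleukin-1β.

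The sequence just upstream of these genes is shown for 3 members whose values recur below, because the set is one of myeloid genes. PU.1, the product of Spi1, is the lineage factor of macrophages and binds the letters GAGGAAGT around the core GAGGAA, and NF-kB is the factor that Toll-like receptor signalling activates. Windows of the RefSeq promoter table (build GRCm38.p6, 250 bases before to 50 after each gene start) were found for 26 of the genes and searched on both strands. The printed stretches end 20 bases after the start and read 5′ to 3′ on the strand of the gene. Capitals mark GAGGAAGT or its reverse complement and matches to the NF-kB consensus.
C1qc, chr4:136892895-136893164, minus strand: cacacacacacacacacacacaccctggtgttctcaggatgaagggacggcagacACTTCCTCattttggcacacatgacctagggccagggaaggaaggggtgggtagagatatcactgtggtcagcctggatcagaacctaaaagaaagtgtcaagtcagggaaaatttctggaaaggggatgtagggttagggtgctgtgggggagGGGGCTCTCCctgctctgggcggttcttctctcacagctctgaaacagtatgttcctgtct
Ctss, chr3:95526536-95526805, plus strand: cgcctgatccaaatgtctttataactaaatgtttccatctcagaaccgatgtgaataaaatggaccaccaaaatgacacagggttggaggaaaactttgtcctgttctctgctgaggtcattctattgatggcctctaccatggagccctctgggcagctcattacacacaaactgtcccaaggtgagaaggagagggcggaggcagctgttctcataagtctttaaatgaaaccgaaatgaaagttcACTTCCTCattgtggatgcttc
Tlr2, chr3:83841589-83841858, minus strand: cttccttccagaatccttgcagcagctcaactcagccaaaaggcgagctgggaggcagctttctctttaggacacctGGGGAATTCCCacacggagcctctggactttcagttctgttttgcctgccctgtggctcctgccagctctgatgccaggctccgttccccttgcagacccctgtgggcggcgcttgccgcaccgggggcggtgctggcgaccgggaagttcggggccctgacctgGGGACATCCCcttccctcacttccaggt
In C1qc the PU.1 letters stood on the opposite strand, from 195 bases before the start, and an NF-kB match lay from 41 bases before it. In Ctss, the cathepsin S gene, the PU.1 letters lay across the start itself, again on the opposite strand. In Tlr2 there was no PU.1 match, but overlapping NF-kB matches began 173 and 172 bases before the start and a further one 8 bases before it. Over the 26 genes GAGGAAGT was found in 4, namely Ctss, C1qc, Retnla and Cd53, which is 15.4% against 3.69% of all 27025 genes in the table. The shorter core GAGGAA, which is contained in GAGGAAGT, was found in 15 of them, or 57.7%, against 31.3% of all genes. The NF-kB consensus was found in 4, namely Fcgr3, C1qc, Tlr2 and Lgals3, which is 15.4% against 9.55%. These are letter matches in a fixed window and were not tested.

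The signal given for each array is the processed intensity of the scanner software, averaged over the spots of a probe and before scaling. For each comparison the log2 signal was scaled by subtracting the 75th percentile of the array, which stood at a signal of 356 (WT) and 371 (ASK1-deficient) for the iBAT arrays and at 673 (WT) and 634 (ASK1-deficient) for the eWAT arrays. Pairs of signals and their log2 ratios give WT before ASK1-deficient and iBAT before eWAT, and a ratio is ASK1-deficient over WT unless stated otherwise. A log2 ratio of 1 is therefore 2-fold after scaling. Between 28985 and 33389 of the 55681 probes were well above background on an array, and no spot was saturated. Over repeated spots of a probe, the SD of the log2 ratio had a median of 0.087 in iBAT, from 276 probes, and of 0.059 in eWAT, from 292 probes, and this measures array error alone. The labels were checked at the targeted gene, whose probes disagreed. For Map3k5 the signals were 448 and 117 in iBAT and 701 and 194 in eWAT at 1 probe, and 1081 and 1082 in iBAT and 1264 and 836 in eWAT at the other, which was level in iBAT. Which bases of the gene were removed is not given in the sources used here, so a probe outside them would check nothing. The tissue labels fitted the brown fat gene Ucp1, with signals of 343275 and 263161 in iBAT and of 6603 and 252 in eWAT, and the adipokine genes Adipoq and Lep were measured on every array. Of 15 macrophage marker genes, all of them members, so that they are no separate check of the set's name, 14 had a probe and 12 were well above background on all 4 arrays. Their mean scaled log2 level was -0.14 and 0.51 in iBAT and 2.49 and 2.42 in eWAT.

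Macrophage genes were higher in ASK1-deficient than in WT iBAT at nearly every member that could be measured. Of the 35 genes, 27 were measured well above background on both iBAT arrays, and 26 of these had a log2 ratio above 0, against 40.5% of all 14377 genes measured. Of the 27, 5 were at least 2-fold higher, against 0.835% of all genes, and 0 were at least 2-fold lower, against 1.02%. At 1.5-fold, 18 were higher, against 4.52%. The median log2 ratio was 0.72, or 1.65-fold, against -0.07 over all genes, and 21 of the 27 lay among the highest 10% of all genes. Cd163, Cybb and Cd53 were well above background in the ASK1-deficient pool only and are bounded, and 5 genes, Msr1, Il1b, Il1rn, Tnf and Spi1, have no value in iBAT. With normexp background correction, which compresses ratios of dim probes, 0 of the 27 reached 2-fold, the median was 0.58, Trem2 stood at 0.63, Gpnmb at 0.92 and Fcgr1 at 0.22. In bulk tissue, more macrophages and more RNA per macrophage cannot be told apart, and with 1 pool per genotype the difference between pools cannot be told apart from an effect of genotype.

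**Figure D1:**
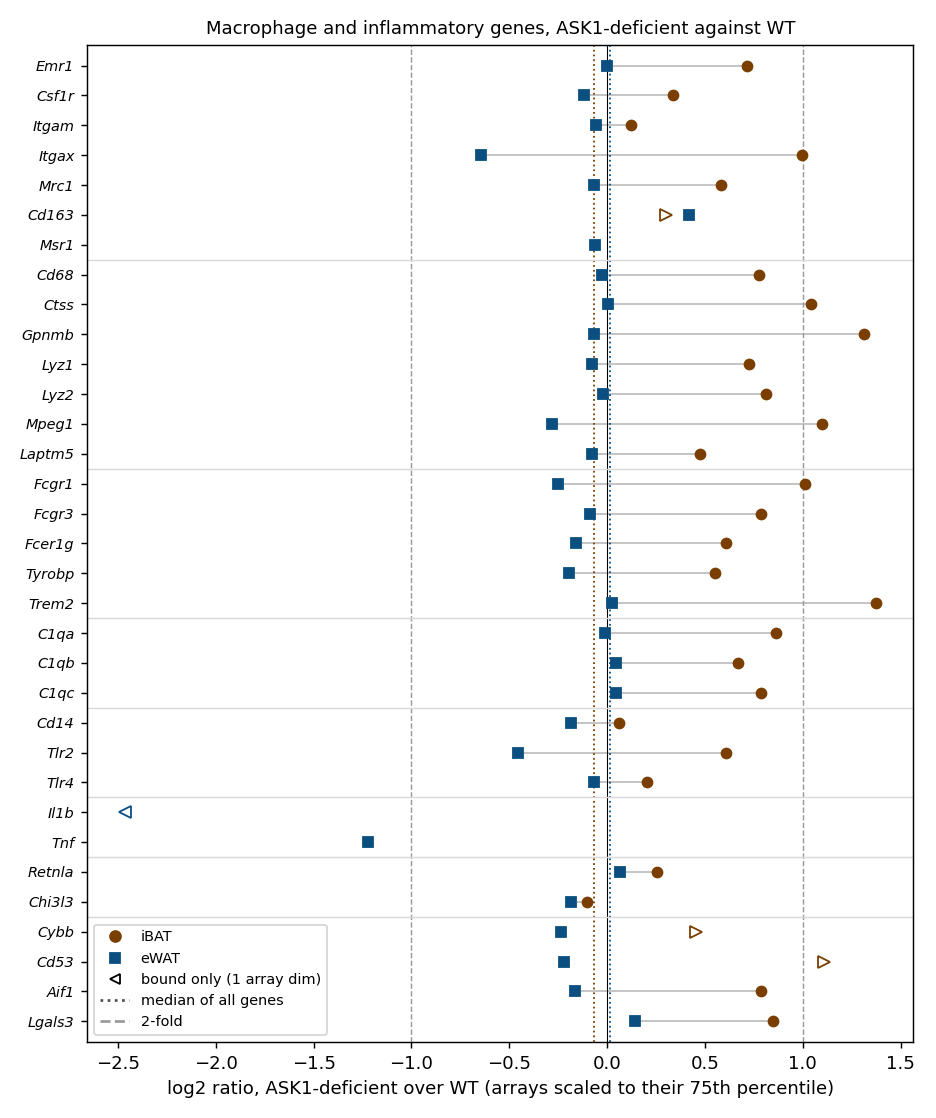
Log2 ratio of ASK1-deficient over WT for each member in iBAT (brown circles) and eWAT (blue squares), grouped by role, with open triangles for genes that have only a bound and dotted lines for the medians of all genes. In iBAT the circles lie to the right of 0 except Chi3l3 at -0.10. In eWAT 24 of 32 members lie within 0.2 of 0, while of all genes 13.9% lie at or below -0.2 and 87.2% at or below 0.2. Itgax, Tnf and the bound of Il1b stand to the left in eWAT.

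The lysosomal and vesicular genes held 3 of the 5 genes past 2-fold, against 0.835% of all genes, and all 7 were above 0 in iBAT, against 40.5%. Gpnmb, a glycoprotein of lysosomes in lipid-laden macrophages, had signals of 89.2 and 232 in iBAT and of 1063 and 953 in eWAT, with log2 ratios of 1.31 and -0.07. Ctss, a lysosomal protease that trims antigen complexes, had signals of 775 and 1666 in iBAT and of 15989.6 and 15118 in eWAT, with log2 ratios of 1.04 and 0.01. Both genes were thus more than 2-fold apart in the brown depot and level in the white depot. Mpeg1, a pore-forming protein of the phagosome, had signals of 334 and 745 in iBAT and of 2839 and 2462 in eWAT at its brighter probe, with log2 ratios of 1.10 and -0.12. Its other probe was not well above background in iBAT and read 62.5 and 43.1 in eWAT, which brings the gene's mean to -0.28 there. Cd68, the lysosomal membrane protein most used to stain macrophages, had signals of 384 and 687 in iBAT and of 6133 and 5433 in eWAT, and a log2 ratio of 0.78 in iBAT. A second, dimmer Cd68 probe was not well above background in WT iBAT and was at least 1.99-fold higher in the ASK1-deficient pool. Lyz2, lysozyme M of macrophages and neutrophils, had signals of 339 and 621 in iBAT and of 8592 and 7975 in eWAT, and its log2 ratio in iBAT was 0.81. The near-identical Lyz1 gave 0.72, and the array cannot be taken to separate these copies. Laptm5, a lysosomal protein of blood cells, was the lowest of the group in iBAT at 0.47, the mean of probes at 0.63 and 0.32.

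Among the receptors that signal through immunoreceptor tyrosine-based activation motifs, all 5 were above 0 in iBAT, against 40.5% of all genes. In eWAT 1 of them was above 0, against 54.1% of all genes. Trem2, the lipid receptor of adipose macrophages, had the highest iBAT ratio of the set in the main scaling. With normexp it stood at 0.63, below Ctss and Mpeg1, at 0.99 each, and Gpnmb. It was then also below C1qa, Lgals3, C1qc, Aif1, Cd68, Lyz2 and Lyz1, which kept at least 0.64 under every normalization. The Trem2 signals were 49.8 and 135 in iBAT and 2714 and 2601 in eWAT, with log2 ratios of 1.37 and 0.03. Tyrobp (DAP12), the adaptor through which Trem2 signals, had signals of 842 and 1288 in iBAT and of 12211 and 10045 in eWAT, with log2 ratios of 0.55 and -0.19. Receptor and adaptor were therefore both higher in ASK1-deficient iBAT. Fcgr1, the high-affinity IgG receptor CD64, had signals of 30.1 and 63.3 in iBAT and of 303 and 239.6 in eWAT, with log2 ratios of 1.01 and -0.25. Its iBAT signals are the closest to background among the 5 genes past 2-fold. Fcgr3, a low-affinity IgG receptor, was at 0.79 in iBAT and -0.09 in eWAT, and Fcer1g, the common chain of these receptors, at 0.61 and -0.16.

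The 3 chains of C1q, the complement component that tags debris for uptake and that tissue macrophages make, had similar ratios within each depot. C1qa had signals of 521 and 989 in iBAT and of 9933 and 9283 in eWAT. C1qb had signals of 549 and 911 in iBAT and of 8166 and 7937 in eWAT. C1qc had signals of 695 and 1252 in iBAT and of 12297 and 11959.7 in eWAT. In iBAT the log2 ratios were 0.86, 0.67 and 0.79 for the A, B and C chains, and in eWAT all 3 lay between -0.01 and 0.05. The C1qc probe is printed on the array 10 times, which gives a measure of array error. Its spots read 634 to 754 in WT iBAT and 1186 to 1299 in ASK1-deficient iBAT, with no overlap, and the log2 ratio over the 10 spots was 0.79 ± 0.075 (SD). In eWAT the spots read 11773 to 12636 in WT and 10885 to 12461 in ASK1-deficient fat and overlapped, with a log2 ratio of 0.05 ± 0.057.

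**Figure D2:**
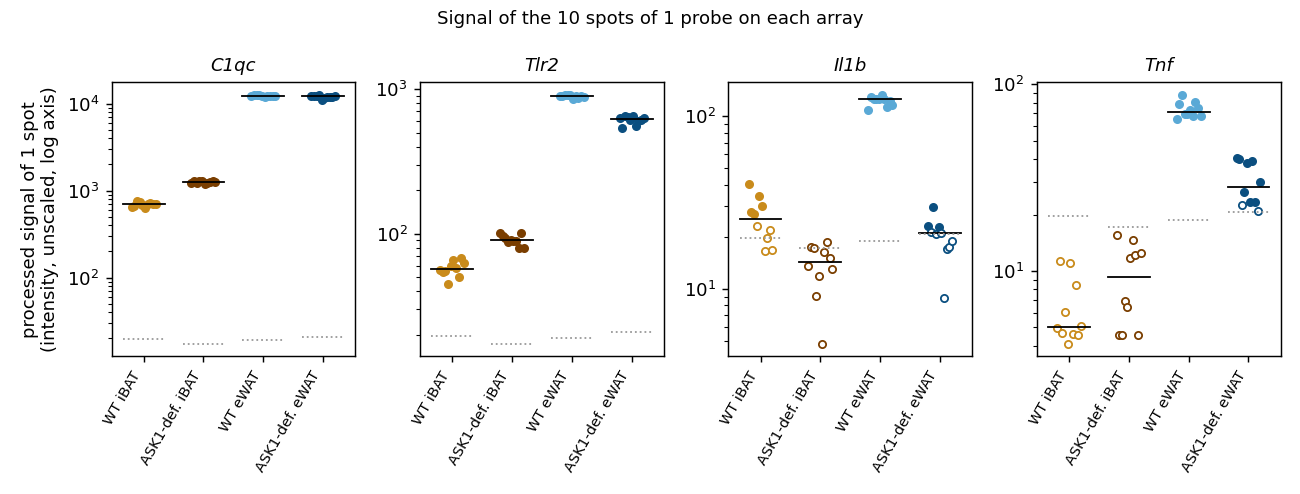
Processed signal (unscaled intensity, log axis) of each of the 10 spots of the C1qc, Tlr2, Il1b and Tnf probes on the 4 arrays, with a bar at the median, open symbols for spots not well above background and a dotted line at the lowest probe signal well above background. C1qc and Tlr2 were higher in ASK1-deficient than in WT iBAT, and Tlr2, Il1b and Tnf were lower in ASK1-deficient than in WT eWAT, with no overlap of spots.

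Of the 7 surface receptors of macrophages, 5 were measured in iBAT, with log2 ratios between 0.12 and 0.998, the lowest being Itgam, whose probes disagreed. Emr1, the F4/80 antigen, had signals of 258 and 383 in iBAT and of 4144 and 3748 in eWAT at its brighter probe, and of 95.1, 188, 1422 and 1392 at the other. The means of the probes' log2 ratios were 0.72 and 0.00. Mrc1, the mannose receptor CD206, had signals of 368 and 575 in iBAT and of 8234 and 7405 in eWAT, with log2 ratios of 0.58 and -0.07. Csf1r, the receptor for the growth factor on which macrophages depend, was measured by 3 probes, all above 0 in iBAT at 0.47, 0.35 and 0.20 and all below 0 in eWAT, between -0.18 and -0.07. Cd163, a scavenger receptor for haemoglobin, was not well above background in WT iBAT at 9.12, read 25.3 in ASK1-deficient iBAT, at least 1.23-fold higher, and read 272 and 343 in eWAT, the highest eWAT ratio of the set at 0.42. Msr1, scavenger receptor A, has no ratio in iBAT, where its probes read 5.10 and 7.93 in WT and 14.99 and 19.4 in ASK1-deficient fat, and its eWAT probes differed in direction at 0.12 and -0.25. Itgax was the receptor in which the depots parted most. This gene encodes CD11c, an integrin of dendritic cells and of macrophages in inflamed fat. Its signals were 46.5 and 96.9 in iBAT and 1422 and 856 in eWAT. The log2 ratios were 0.998 and -0.64, so CD11c transcripts were higher without ASK1 in the brown depot and lower in the white depot. The iBAT ratio lay between 0.59 and 1.10 over the normalizations. Dendritic cell markers had a median log2 ratio of 0.11 in iBAT, over 5 genes, and of -0.42 in eWAT, over 7 genes that ranged from Ccr7 at -0.84 to Itgae at 0.39, and their part in the Itgax values was not tested.

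For Itgam, which encodes CD11b, the integrin chain that myeloid cells share, 3 probes disagreed and the gene has no clear value. On chromosome 7 of mm9 they lie at positions 135212140 to 135212199, 135260275 to 135260334 and 135261755 to 135261814, which is from base 270, 3410 and 4431 of the transcript they were designed on. Exons were not assigned, since no genome of that build was used. The sequences of the first 2 are printed because the probes point in opposite directions between depots.
Itgam from base 270: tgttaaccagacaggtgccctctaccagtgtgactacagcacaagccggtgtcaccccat
Itgam from base 3410: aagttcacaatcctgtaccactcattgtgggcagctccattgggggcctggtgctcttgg
The probe from base 270 had signals of 87.8 and 103 in iBAT and of 48.1 and 50.1 in eWAT, so that it was brighter in iBAT. The probe from base 3410 had signals of 49.2 and 48.7 in iBAT and of 322 and 264 in eWAT, the direction of the other macrophage genes. The probe from base 4431 was bright everywhere, with signals of 8399, 10572, 16355 and 14152. It contains the repeat CACACACACACACACACACA, of 20 bases, and is 1 of 26 probes among 55681 with at least 9 CA units in a row. All 26 were well above background on every array, and their log2 ratio of ASK1-deficient over WT iBAT lay between 0.24 and 0.97 with a median of 0.47. The Itgam probe gave 0.27, and the share of the repeat in that value was not tested. The probes from bases 270 and 3410 gave 0.17 and -0.08 in iBAT, below the ratios of Emr1 and Cd68.

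Of the pattern recognition receptors, Tlr2 differed between the genotypes in both depots and in opposite directions. Tlr2 recognises bacterial lipopeptides. Its 10 spots read 44.8 to 67.7 in WT and 79.2 to 101 in ASK1-deficient iBAT, and the log2 ratio was 0.61 ± 0.19 (SD over 10 spots), above 0 at all 10. These signals are dim, and the iBAT ratio lay between 0.29 and 0.71 over the normalizations. In eWAT the spots read 851 to 912 in WT and 534 to 654 in ASK1-deficient fat, and the log2 ratio was -0.46 ± 0.10, below 0 at all 10. The ratios of the depots thus lay further apart than the spots of either, while the error between mice is unknown. Tlr4, the receptor for endotoxin, had signals of 136 and 164 in iBAT and of 773 and 695 in eWAT at the probe that was detected, with log2 ratios of 0.21 and -0.07, and its other probe was not well above background on any array. Cd14, the co-receptor of endotoxin, had signals of 387 and 420.2 in iBAT and of 2188 and 1809 in eWAT. Its log2 ratio in iBAT was 0.06 and took either sign, from -0.03 to 0.16, with the scaling used. Both endotoxin receptors thus lay below the set's median ratio in iBAT.

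The cytokines Tnf and Il1b were below WT in ASK1-deficient eWAT, where most other members, like most of all genes, were level. Of the members 24 of 32 lay within 0.2 of 0, while of all genes 13.9% lay at or below -0.2 and 87.2% at or below 0.2. In eWAT 32 genes were measured, 25 of them below 0, against 45.9% of all 15377 genes, and the median log2 ratio was -0.07, against 0.02 over all genes. At 2-fold, 1 gene was lower, against 0.865% of all genes, and 0 were higher, against 0.286%. Il1b has only a bound, and Il1rn and Spi1 have no value. Tnf, the inflammatory cytokine TNF, was that gene. Its 10 spots read 65.2 to 88.0 in WT and 21.1 to 40.3 in ASK1-deficient eWAT, where 8 of them were well above background, and the log2 ratio was -1.22 ± 0.47 (SD over 10 spots). Below the detection level in iBAT, the same spots read 4.08 to 11.4 in WT and 4.53 to 15.6 in ASK1-deficient fat. Il1b, which encodes interleukin-1β, read 108 to 132 in WT eWAT and 8.83 to 29.8 in ASK1-deficient eWAT, where 3 of 10 spots were well above background. Its probe was thus detected in WT and not in ASK1-deficient eWAT, and was at least 5.52-fold lower. In iBAT the Il1b spots read 16.6 to 40.3 in WT, with 5 well above background, and 4.80 to 18.6 in ASK1-deficient fat, with 0 above it, so no ratio is given. Il1rn, the receptor antagonist of interleukin-1, was not well above background on any array, at 10.5 and 12.2 in iBAT and 15.04 and 4.77 in eWAT. The Tnf ratio depends on the background correction and was -0.42 with normexp, where Itgax, between -0.73 and -0.57 over the normalizations, was lower, and Tnf was excluded where a signal of 100 was required.

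Retnla and Chi3l3, secreted proteins of alternatively activated macrophages, had iBAT ratios below the median of the set. Retnla (FIZZ1) had signals of 2261 and 2812 in iBAT and of 157121 and 154843 in eWAT, with log2 ratios of 0.25 and 0.07. Chi3l3 (Ym1) had signals of 54.4 and 52.9 in iBAT and of 318 and 263 in eWAT, and was the member below 0 in iBAT, at -0.10, and at -0.19 in eWAT. Its near-identical neighbour Chil4 was not well above background on any array. Of the other members, Lgals3, which encodes galectin-3, had signals of 1011 and 1899 in iBAT and of 35121 and 36436 in eWAT, with log2 ratios of 0.85 and 0.14. Aif1 (IBA1), an actin-binding marker of macrophages, had signals of 421 and 758 in iBAT and of 3913 and 3283 in eWAT, with log2 ratios of 0.79 and -0.17. Both were thus higher in ASK1-deficient iBAT. Cybb, the catalytic subunit of the phagocyte NADPH oxidase, read 12.8, below detection, in WT and 28.1 in ASK1-deficient iBAT, at least 1.37-fold higher, and was at -0.24 in eWAT. Cd53, a tetraspanin of leukocytes, read 17.9, below detection, in WT and 44.2 in ASK1-deficient iBAT, at least 2.15-fold higher, and was at -0.22 in eWAT.

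**Figure D3:**
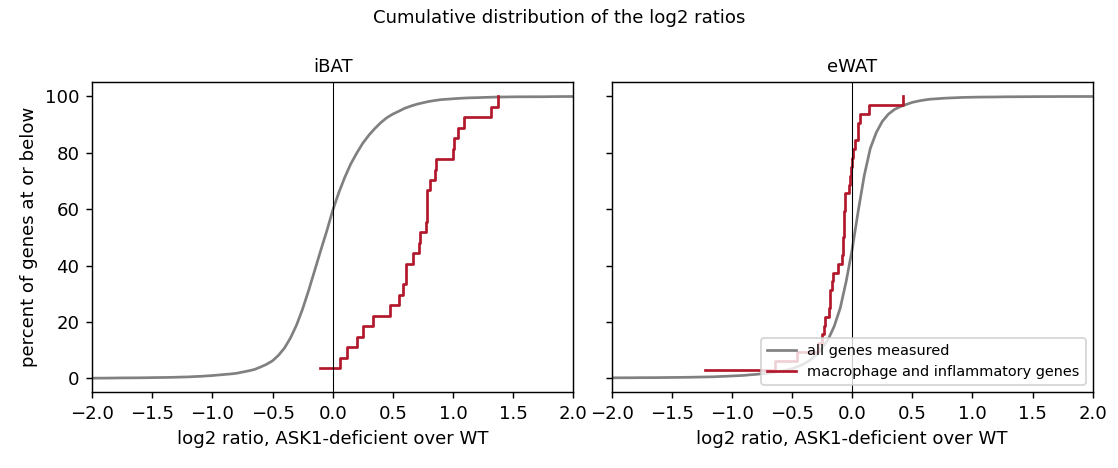
Cumulative percentage of genes (vertical axis) at or below each log2 ratio of ASK1-deficient over WT (horizontal axis) for the macrophage and inflammatory genes (red) and all genes measured (grey) in iBAT, with 27 and 14377 genes, and in eWAT, with 32 and 15377 genes. In iBAT the red curve lies to the right of the grey one, with medians of 0.72 and -0.07, and in eWAT it lies slightly to the left, with medians of -0.07 and 0.02.

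The set was far lower in iBAT than in eWAT in both genotypes. In WT mice 27 members were measured in both depots, and 26 were at least 2-fold lower in iBAT, against 13.4% of 14236 genes, with a median log2 ratio of -3.03, or 8.19-fold lower. In ASK1-deficient mice 31 were measured and 29 were at least 2-fold lower in iBAT, against 12.6% of 14513 genes, with a median of -2.19, or 4.57-fold lower. The largest differences were those of Retnla, at -5.20 in WT and -5.01 in ASK1-deficient mice, and of Trem2, at -4.85 and -3.50. Lgals3 stood at -4.20 and -3.49 and Itgax at -4.01 and -2.37. Among the smallest in WT mice were those of Cd14, at -1.58 in WT and -1.34 in ASK1-deficient mice, and Tlr4, at -1.58 and -1.31. In ASK1-deficient mice Mpeg1, at -0.95, Fcgr1, at -1.15, and Gpnmb, at -1.27, were smaller still, and Itgam, with its discordant probes, stood at -0.01 and 0.16. In WT mice a further 6 genes had only a bound, all lower in iBAT. These were Cd53, at least 11.3-fold, Cd163, at least 7.31-fold, Cybb, at least 5.31-fold, Msr1, at least 3.42-fold at the brighter of its probes, Il1b, at least 2.60-fold, and Tnf, at least 1.96-fold. The probe listed as Sfpi1, the older name of Spi1, was not well above background in iBAT, at 4.45 and 3.92, and read 57.9 and 53.2 in eWAT, with a genotype log2 ratio of -0.04 there. Il1rn and Spi1 have no tissue value in either genotype, and in ASK1-deficient mice Il1b has none and Tnf only a bound. The 4 comparisons share their arrays, so a member that is higher in ASK1-deficient iBAT and level in eWAT has a smaller gap between depots in ASK1-deficient mice by arithmetic, and the gap is no separate result.

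**Figure D4:**
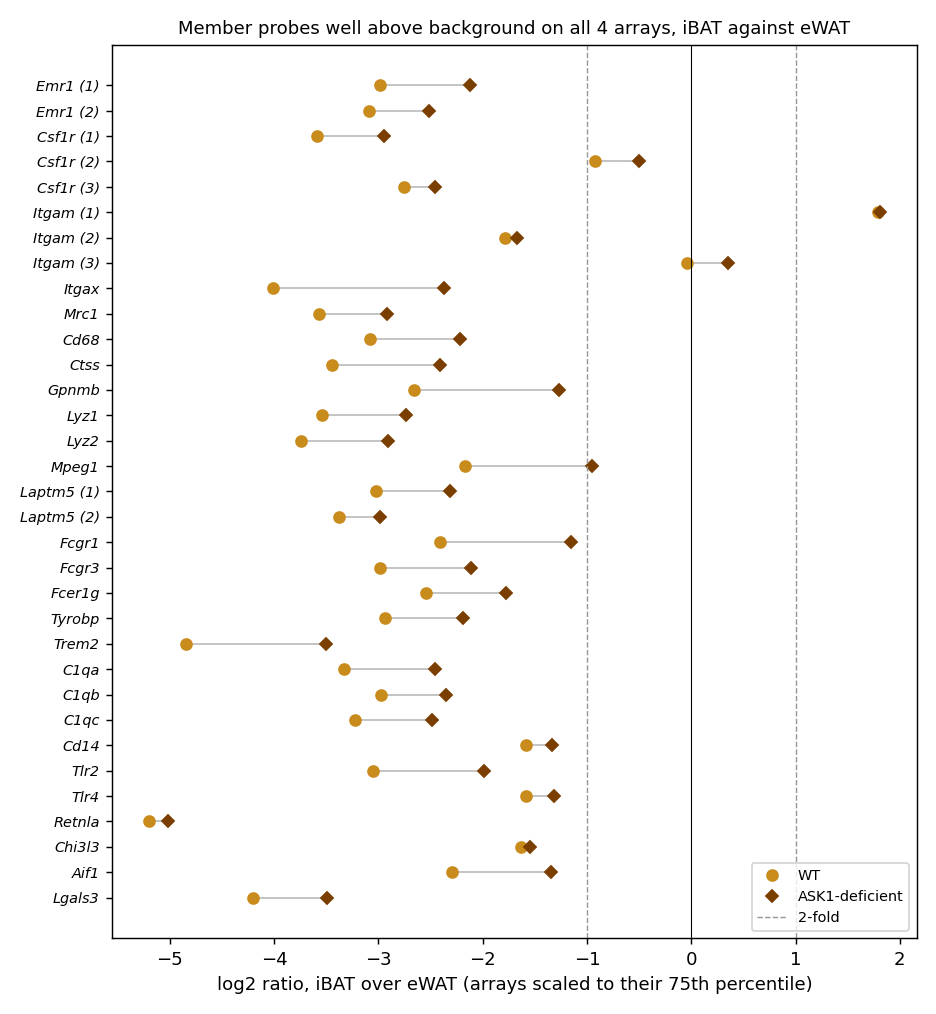
Log2 ratio of iBAT over eWAT in WT (circles) and ASK1-deficient mice (diamonds) for each member probe well above background on all 4 arrays, with the probes of a gene numbered. All probes lie below 0 in both genotypes except the Itgam probe from base 270, at 1.79 and 1.81, and the repeat-bearing Itgam probe, at -0.04 and 0.35.

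A fit of genotype and tissue together over the 4 arrays with limma gave the only test that the design allows. It assumes a genotype effect of the same size in both depots, which the values above do not show, and leaves 1 residual degree of freedom. Its SEs and p-values rest on departures from that assumption and on variance shared over genes. They do not measure the spread between mice. For tissue, 26 of the 27 members fitted had an adjusted p-value under 0.05 with limma, all lower in iBAT, against 24.6% of the 14057 genes fitted, while Itgam did not pass (limma adjusted p = 0.694). Retnla had the largest effect, a log2 difference of -5.10 ± 0.15 (SE, limma adjusted p = 8.2e-06), and Emr1, at -2.68 ± 0.20, had a limma adjusted p of 0.00014. For genotype, 0 of the 27 members passed after adjustment in limma, as did 0.0% of all genes fitted, and the members' limma adjusted p-values lay between 0.910 and 0.997. Without adjustment only Lgals3, at a log2 difference of 0.49 ± 0.20 (SE), was under 0.05 in limma, against 5.48% of all genes. No member's difference between ASK1-deficient and WT mice was thus called by the fit.

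Other genes of myeloid cells and of inflammatory signalling were examined to see how far the pattern reached. Of 58 other myeloid genes, 51 were measured in iBAT and 39 of these were above 0, against 40.5% of all genes, with a median log2 ratio of 0.44. Past 2-fold, 2 were higher, against 0.835% of all genes, and 1 was lower, against 1.02%. The highest were Ms4a4a, a tetraspan membrane protein of macrophages, with signals of 26.0 and 95.1 and a log2 ratio of 1.81, Lyve1, the hyaluronan receptor of perivascular macrophages and lymphatics, with 42.9 and 111 and a ratio of 1.32, and Ms4a7, at 0.99. Among the lowest were Ccr2, the chemokine receptor of monocytes, with signals of 108 and 60.4 and a ratio of -0.90, and Lipa, lysosomal acid lipase, at -0.69. Lyve1 and Ms4a4a were thus higher, and Ccr2 lower, in the same ASK1-deficient iBAT pool. In eWAT 56 were measured, 19 were above 0, against 54.1% of all genes, and 0 were 2-fold apart in either direction, with a median of -0.09. The highest were Mertk, a receptor for apoptotic cells, at 0.60, Ms4a4a at 0.46 and Timd4 at 0.32, and among the lowest were Cx3cr1, the fractalkine receptor, at -0.90 and Fgr at -0.61.

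Genes of Toll-like receptor and cytokine signalling had a lower median in iBAT than the macrophage genes. Of 48 genes, 38 were measured in iBAT and 23 were above 0, against 40.5% of all genes. Their median log2 ratio was 0.06, against -0.07 over all genes, and 1 was at least 2-fold higher, against 0.835%. The highest were Lbp, the endotoxin-binding protein, with signals of 96.1 and 207 and a ratio of 1.05, Tnfrsf1b, a TNF receptor, at 0.96, and Ly86 at 0.74. The lowest were Nlrp3, the inflammasome sensor, at -0.53, Myd88, the adaptor of Toll-like receptors, at -0.45, and Tlr3 at -0.39. In eWAT 41 were measured and 18 were above 0, against 54.1% of all genes, with a median of -0.02. Saa3, an acute-phase apolipoprotein of fat, was the 1 gene at least 2-fold lower, with signals of 1689 and 439 and a log2 ratio of -1.86, and was followed by Tlr1 at -0.52 and Il10ra at -0.43. The highest were Tlr7 at 0.53, the mean of discordant probes at -0.03 and 1.10, Il1r1 at 0.34 and Tlr5 at 0.26.

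Markers of other cell types were followed on the same arrays, and their part in the values above was not tested. In iBAT the other leukocyte lists had median log2 ratios from -0.21 for B cells, over 4 genes, to 0.24 for NK cells, over 3. Between them lay neutrophils at -0.16, over 7 genes, T cells at -0.05, over 7, mast cells at 0.04, over 5, and the 1 eosinophil gene measured at 0.05. The lowest B cell gene, Cd79a at -0.58, was read in both depots by a probe placed on chromosome 12. A Cd79a probe on chromosome 7 was not well above background on any array, so the B cell medians are uncertain. Fibroblast markers, at 0.16 over 8 genes, and endothelial markers, at 0.12 over 8, were also above 0, while adipocyte markers, at -0.21 over 8, and brown adipocyte markers, at -0.39 over 8 and from -4.10 to -0.13, were below it. Skeletal muscle markers were at 0.07, over 5 genes, erythrocyte markers at -0.26, over 4, and the 1 mesothelial gene measured at -0.43. In iBAT the macrophage genes were thus higher in the same pool in which brown adipocyte genes were lower. Hepatocyte markers were higher in that pool as well, with 1 of 6 well above background in WT and 5 of 6 in ASK1-deficient iBAT. Serpina1a had a log2 ratio of 1.55. Alb, the gene of serum albumin, read 7.50 in WT, not well above background, and 115 in ASK1-deficient iBAT, at least 5.62-fold higher. In eWAT several leukocyte lists were below 0 along with Tnf and Il1b. The median was -0.87 for eosinophils, over 3 genes, and -0.77 for NK cells, over 6 genes, led by Gzma at -1.05. It was -0.30 for T cells, over 8, -0.27 for mast cells, over 6, and -0.40 for neutrophils, over 8, led by S100a9 at -1.22 and Retnlg at -1.20, while B cell markers were at 0.08, over 6. The eWAT pools also differed in genes that neither leukocytes nor white adipocytes define. Hepatocyte markers, in contrast to iBAT, were lower in ASK1-deficient eWAT, between -5.58 and -3.47 over the 3 of 6 that were measured, and brown adipocyte markers were between -4.63 and -0.11, over 7. Skeletal muscle markers were lower at all 3 genes measured, with a median of -0.92, and mesothelial markers at all 5, with a median of -0.25. Erythrocyte markers had a median of -0.20, over 4 genes, fibroblast markers of -0.05, endothelial markers of -0.04 and adipocyte markers of 0.08, each of these 3 lists over 8 genes.

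**Figure D5:**
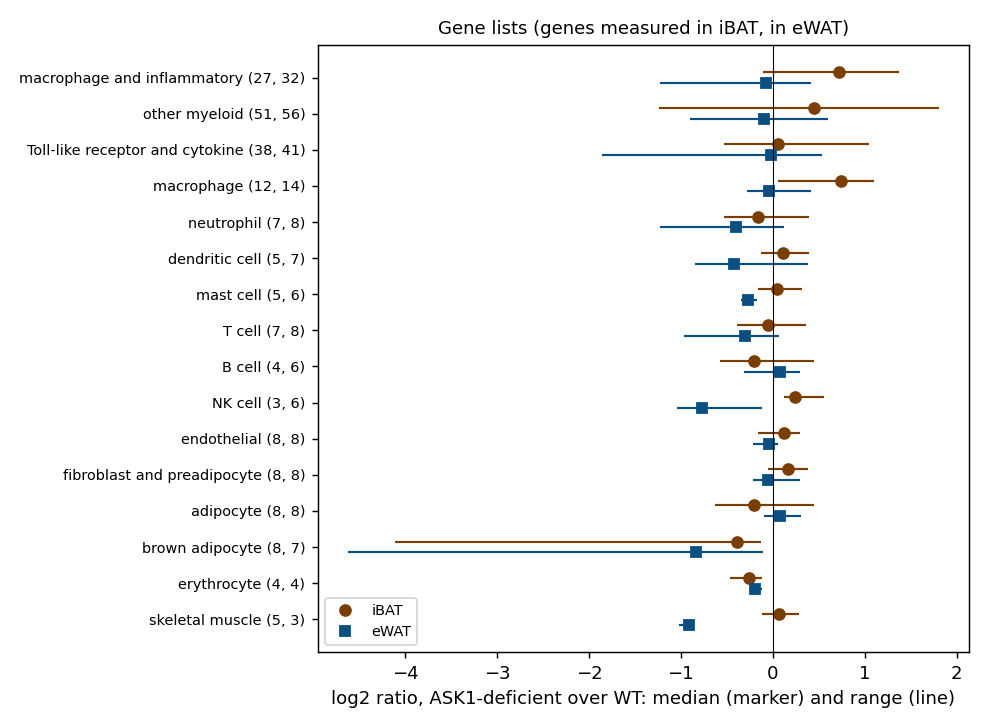
Median (marker) and range (line) of the log2 ratio of ASK1-deficient over WT in iBAT (circles) and eWAT (squares) for the macrophage and inflammatory genes and for gene lists with at least 3 measured genes in both depots, with the number measured in iBAT and in eWAT in brackets. The members and the overlapping macrophage marker list have medians of 0.72 and 0.75 in iBAT, and the NK cell list is at -0.77 in eWAT.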

How the data were processed

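Transcripts of 4 RNA pools were hybridised to 4 Agilent whole mouse genome arrays (Cy3 only, 1 slide, 1 scan), and the sample labels gave genotype and tissue. The authors deposited the scanner output for each array, made with Agilent Feature Extraction 10.7.3.1 per the file headers, with a processed signal per spot, a linear intensity corrected for background. Surrogate values stand in for dim spots, and arrays were left unscaled against each other. The authors also deposited a series table of a linear signal, equal to the processed signal of each array divided by 1 constant, with a median of 1. How that constant was chosen is not given in the sources used here. With surrogates, ratios of dim probes are compressed or unstable.

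Control spots and outlier spots were left out, spots of a probe were averaged on the log2 scale, and each array was set to its 75th percentile. A probe counted as well above background if the scanner marked more of its usable spots than not, and a gene's log2 ratio is the mean over its probes marked on both arrays compared. A probe marked on 1 array only has a bound, in which the dim side is replaced by the lowest marked level of its array or by its own level, if that is higher. This bound says nothing of the mice. Genes were counted at 2-fold. Of 34844 gene names, 22147 had a symbol or a synonym of 1 gene in the RefSeq table, and these make 22066 genes. Probe positions are on mm9 per the file headers. Genotype plus tissue was fitted with limma 3.58.1 (lmFit and eBayes, Benjamini-Hochberg) on 14057 genes well above background on all 4 arrays. The number of arrays limits the precision.

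The members and lists were chosen with earlier results of these data known. The genes named are all members, the 3 highest and 3 lowest of the other myeloid and the Toll-like receptor and cytokine lists, Map3k5, Ucp1, Adipoq and Lep. Some genes that this rule names are not reported here. Chil4, Sfpi1 and the marker genes of other cell types were added after their values were seen, as were the probes with CA repeats. Alternatives were normexp background correction (offset 50), quantile, median and no scaling, scaling on detected probes (the 75th percentile of those well above background everywhere), the series table, no filter, a filter over all 4 arrays, the brightest probe, 1.5-fold and, chosen after seeing the data, a signal of at least 100 on both arrays. The steps were tested on simulated data. R 4.3.3, Python 3.11.15, numpy 2.4.6, pandas 2.3.3 and matplotlib 3.10.9 were used.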

Additional observations from a re-analysis of the deposited data

Results flagged for a closer look

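Itgax, the CD11c gene, was singled out because its iBAT and eWAT arrays moved in opposite directions, with a log2 ratio of ASK1-deficient over WT of 0.998 in iBAT and -0.64 in eWAT. Over the normalizations these lay between 0.59 and 1.10 in iBAT and between -0.73 and -0.57 in eWAT. The difference between the depots was not tested, since each condition has 1 array.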

How the results depend on the processing

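No paired analysis was possible because each condition has 1 array, and leaving out an array leaves no residual degree of freedom, so it was not run. The members' medians and the members past 2-fold, each in the comparison where it passed, kept their sign under every alternative that gave a value. The number of members at least 2-fold higher in ASK1-deficient iBAT, 5, was 0 with normexp, 3 with median centring, 3 with the series table, 9 with no filter on dim probes, 2 with a signal of at least 100 and 18 at 1.5-fold, and between 4 and 6 otherwise. With no filter 1 was at least 2-fold lower. The iBAT median log2 ratio, 0.72, lay between 0.58 with normexp and 0.83 with scaling on detected probes. In eWAT the 1 member at least 2-fold lower became 0 with normexp, 0 with the filter over all 4 arrays and 0 with a signal of at least 100, where Tnf has no value in the last 2, and became 3 with no filter and 2 at 1.5-fold. The eWAT median, -0.07, was -0.16 with no scaling. For iBAT over eWAT, the WT median of -3.03 was -2.68 with normexp, -3.95 with no scaling and -3.17 with scaling on detected probes, and the ASK1-deficient median of -2.19 was -1.90 with normexp, -2.96 with no scaling, -2.28 with median centring, -2.27 with the series table and -2.32 with a signal of at least 100. With no filter 1 member was at least 2-fold higher in ASK1-deficient iBAT than eWAT. No scaling itself moved the median of all genes by -0.92 in the WT and -0.77 in the ASK1-deficient tissue comparison. Scaling on detected probes moved it by 0.10 in iBAT, from -0.07 to 0.04, a change of sign, and the median of all genes in eWAT, 0.02, was -0.07 with no scaling and -0.0087 with scaling on detected probes. Over all normalizations 26 of 27 members kept 1 sign in iBAT, 25 above 0, and 23 of 32 in eWAT, 21 below 0. Apart from what the alternatives change by construction, the cause of these differences was not tested. Signals near background limit the values of Fcgr1, Trem2, Itgax, Tlr2 and Tnf.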
